A study of Homo sapiens with 4 samples.

Results

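The genes described here encode proteoglycans, the enzymes that build their sugar chains and the enzymes that break them down. They are 44 genes chosen by name in 5 roles: 10 core proteins, 4 linker enzymes, 11 enzymes of chondroitin and dermatan sulfate synthesis, 10 enzymes of heparan sulfate synthesis and editing, and 9 enzymes of lysosomal and hyaluronan breakdown. They were read in all 4 libraries of the study, beside the 18650 loci with at least 1 fragment in the series. The cells were HT-29, a human line of colorectal adenocarcinoma, and NCM460, which the study used as its normal colon line. Each line was left untreated as the control or was given SCS, a chondroitin sulfate prepared from sturgeon, at 100 μg/mL for 24 h. The comparison of SCS with control in each line asks which genes of this machinery differed when a member of the same class of polysaccharide was added to the medium. There was 1 library per condition, so no difference has a replicate check, no test between conditions was made, and a difference between 2 libraries cannot be told apart from a difference between 2 dishes or 2 library preparations.

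A proteoglycan is a protein that carries glycosaminoglycans, long chains of repeated sugar pairs. Xylose and a short linker are first attached to a serine of the core protein, and the chain then grows either as chondroitin or as heparan. Sulfotransferases add sulfate at set positions, an epimerase turns part of the glucuronic acid into iduronic acid, and extracellular sulfatases remove some of the sulfate again. Syndecans and glypicans hold heparan sulfate at the surface of epithelial cells, where it binds growth factors, and perlecan and agrin are heparan sulfate proteoglycans of the basement membrane. Worn-out chains are cut from their ends in lysosomes by sulfatases and glycosidases, whose loss causes mucopolysaccharidoses and related storage diseases.

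The deposited count values could be divided back into whole fragments, which were scaled to the size of the library as CPM, with TMM factors over all 4 libraries. A log2 fold change is that of SCS over control, with a prior count of 2 and an exact 95% Clopper-Pearson interval that covers counting error only, without PCR duplicates or differences between cultures. A gene was compared, and counts as tested here, where its mean over both libraries of a line was at least 1 CPM. It was called where it differed over 1.5-fold and its interval excluded 0. Levels are compared between genes only as the deposited FPKM, which is per length of transcript. Where a library held 3 fragments or fewer, the ratio of CPM without a prior count is given in place of the log2 fold change.

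The libraries held between 1156568 and 1654764 fragments, of which mitochondrial transcripts made up 35.8% and 13.8% in HT-29 control and SCS libraries and 62.3% and 46.3% in those of NCM460. The floor of 3 fragments came to 1.47 and 1.25 CPM in HT-29 and to 3.85 and 2.77 CPM in NCM460, so smaller differences could be resolved in HT-29 cells. In NCM460 cells the log2 fold changes followed the GC content of the transcripts (Spearman's rho = -0.74 over 9356 loci of at least 5 CPM, against -0.16 over 9340 loci in HT-29 cells), and values with this trend subtracted are given beside those of NCM460 cells. Of 12 colon epithelium markers, 8 were above 3 fragments in both HT-29 libraries and 6 in both NCM460 libraries. Their summed level was 6526 and 3535 CPM in the control and SCS libraries of HT-29 and 4346 and 2659 CPM in those of NCM460. CDX1 and GPA33 were at 0 in all 4 libraries, and CDH17 had 1 fragment in the HT-29 control and none elsewhere. CDX2 was at 0 in HT-29 cells and had 14 and 12 fragments in NCM460 cells. KRT20, VIL1 and LGALS4 were at 0 in NCM460 cells, so these defining markers of colon epithelium were not detected in that line at this depth. Of 12 fibroblast and mesenchymal markers, 2 and 4 were above 3 fragments in the HT-29 control and with SCS, and 5 and 4 in the NCM460 libraries. Their summed level was 6.35 and 10.4 CPM in HT-29 cells and 42.4 and 42.5 CPM in NCM460 cells. Of 8 leukocyte markers, PTPRC, CD3E and CD14 were among those at 0 in all 4 libraries. Their summed level of 394 to 618 CPM came mostly from CD68, which shares its locus with other genes, and in HT-29 cells also from LYZ, which is alone in its locus and stood at 295 and 146 CPM there and at 0 in NCM460 cells.

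At least 1 fragment was found for 43 of the 44 genes, and for 39 in every library. The exception was BGN, biglycan, a small matrix proteoglycan, which was at 0 in all 4 libraries. CSGALNACT1, an enzyme that starts and extends chondroitin chains, had 1 fragment in NCM460 cells with SCS and none elsewhere. The tests covered 38 genes in HT-29 cells and 42 in NCM460 cells. NDST1 was listed in 2 rows, and its values here are those of the first row with a fragment. The locus of 11 genes holds another gene as well: AGRN, CHPF2, DSE, NDST2, HS2ST1, GLCE, HEXA, GLB1, IDS, NAGLU and HYAL2 were listed with the same values as at least 1 overlapping gene, so their fragments may in part belong to the other gene.

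Agrin had the highest level of the 44 genes in HT-29 cells and CHPF, a subunit of chondroitin synthase, in NCM460 cells. AGRN stood at 115 FPKM in the HT-29 control and 98.9 FPKM with SCS, and at 23.7 and 14.9 FPKM in NCM460 cells. CHPF stood at 18.1 and 37.6 FPKM in HT-29 cells and at 117 and 86.2 FPKM in NCM460 cells. The 2 lines thus led with different genes, in both conditions. CD44, a hyaluronan receptor that can itself carry chondroitin or heparan sulfate, was the highest core protein in NCM460 cells, at 90.6 and 75.0 FPKM, and stood at 84.9 and 48.3 FPKM in HT-29 cells. The highest heparan sulfate enzyme was EXT2 in every library, between 12.1 and 32.0 FPKM; with EXT1 it forms the polymerase of the chain. Among breakdown enzymes NAGLU, which removes N-acetylglucosamine from heparan sulfate, was highest in both controls, at 30.3 FPKM in HT-29 cells and 55.6 FPKM in NCM460 cells. HEXA, a subunit of beta-hexosaminidase, was highest in HT-29 cells with SCS (36.7 FPKM) and HYAL2, a hyaluronidase, in NCM460 cells with SCS (32.5 FPKM). Of the linker enzymes, the highest was B3GALT6 in the HT-29 control (12.6 FPKM), B3GAT3 in HT-29 cells with SCS (10.3 FPKM) and in the NCM460 control (20.4 FPKM), and XYLT2 in NCM460 cells with SCS (9.07 FPKM).

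**Figure D1:**
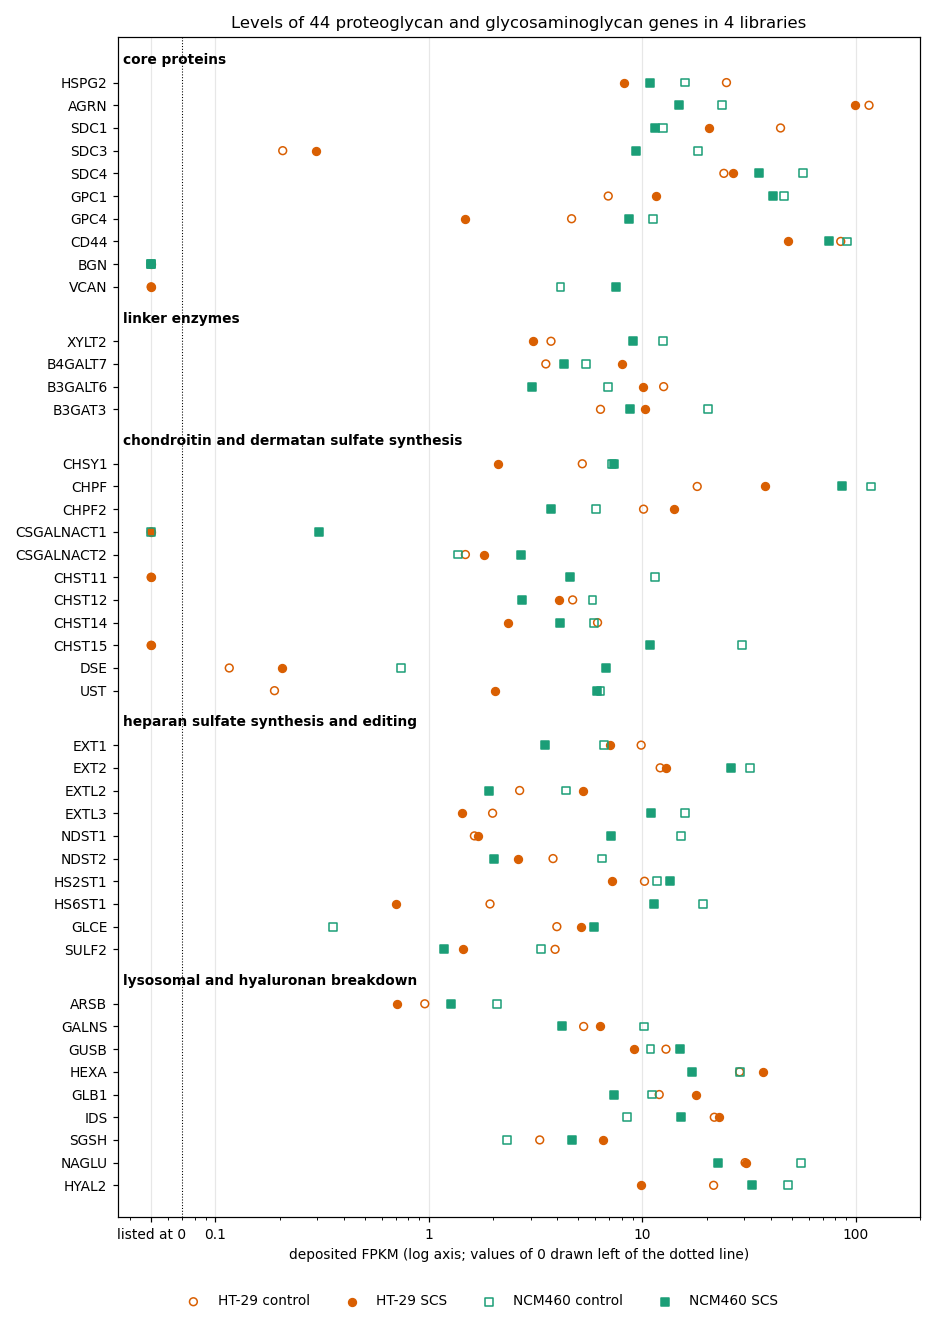
Deposited FPKM of the 44 genes on a log axis, 1 row per gene in 5 roles; circles are HT-29 and squares NCM460, open symbols are controls and filled symbols SCS, with 1 library per symbol. AGRN in the HT-29 control and CHPF in the NCM460 control exceed 100 FPKM. VCAN, CHST11 and CHST15 sit at 0 in both HT-29 libraries and above 0 in both NCM460 libraries.

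A number of genes differed between the 2 lines in both conditions, and only some of them are named here. VCAN, versican, a large chondroitin sulfate proteoglycan of the matrix, had no fragment in either HT-29 library and 9 and 31 fragments in the NCM460 control and with SCS. CHST11, which sulfates chondroitin at the 4 position, had none in HT-29 cells, against 13 and 14 in NCM460 cells. CHST15, which adds a second sulfate to 4-sulfated chondroitin to give the E unit, had none in HT-29 cells, against 38 and 31 in NCM460 cells. Set against the floor of 3 fragments of the HT-29 library, NCM460 cells were at least 7.88-fold higher for VCAN, at least 11.4-fold for CHST11 and at least 33.3-fold for CHST15 in the controls, and at least 23.0-, 10.4- and 23.0-fold higher with SCS. SDC3, a syndecan, had 3 and 6 fragments in HT-29 and 103 and 71 in NCM460, a ratio of CPM between the lines of 90.2 (30.0 to 445) in the controls and 26.3 (11.5 to 74.0) with SCS. In the other direction AGRN was at 0.230 (0.190 to 0.277) of its HT-29 CPM in the NCM460 control and at 0.153 (0.123 to 0.187) with SCS. In bulk RNA such as this, fewer cells of a kind and less RNA per cell cannot be told apart.

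In HT-29 cells the core proteins HSPG2, SDC1, GPC4 and CD44 were called lower with SCS and GPC1 was called higher. In chondroitin and dermatan sulfate synthesis CHPF and UST were called higher and CHSY1 and CHST14 lower, and of the linker enzymes B3GAT3 was called higher. The heparan sulfate enzymes held 1 called gene, SULF2, and the breakdown enzymes also 1, HYAL2, both lower. In all, 12 of the 38 genes tested were called, or 31.6%, where 31.5% of the 12168 loci tested in this line were called in either direction. By direction, 4 were higher and 8 lower, where 16.8% of all loci were called higher and 14.8% lower. The share of called genes was thus that of the whole table. The split by direction depended on the scaling, with 9 higher and 7 lower on total fragments and 3 and 9 on nuclear fragments. The median log2 fold change of the 38 genes was -0.05 (95% order-statistic interval -0.34 to 0.30), and that of all loci was 0.07.

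HSPG2, perlecan, had the most fragments of the genes called in HT-29 cells, 696 in the control and 309 with SCS, or 340 and 129 CPM. Its log2 fold change was -1.39 (-1.60 to -1.21), and its deposited FPKM was 24.8 in the control and 8.18 with SCS. In the study's own list of changed genes, the FPKM of HSPG2 in HT-29 cells was only slightly lower with SCS. The reason for this mismatch with the deposited values was not examined. CD44 had 593 and 308 fragments, or 290 and 128 CPM, a log2 fold change of -1.17 (-1.38 to -0.98). Both were lower by more than 2-fold in CPM, and both were called under every alternative setting tried. SDC1, syndecan-1, the main syndecan of epithelia, had 310 and 183 fragments and 44.4 and 20.5 FPKM, with a log2 fold change of -0.98 (-1.26 to -0.72). GPC4, a glypican anchored to the membrane by a lipid, had 50 and 22 fragments, differing by -1.30 on the log2 scale (-2.21 to -0.67). These 4 genes carry heparan sulfate at the cell surface or in the basement membrane, or can carry it.

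Not every core protein was lower. GPC1, another glypican, had 38 fragments in the control and 89 under SCS, 6.92 and 11.6 FPKM, and a log2 fold change of 0.95 (0.43 to 1.58). The 2 glypicans were thus called in opposite directions. SDC4, a syndecan of focal adhesions, had 130 and 180 fragments and was not called (0.23, -0.10 to 0.57). AGRN had 1402 and 1426 fragments, the most of all 44 genes in these cells, and a log2 fold change of -0.21 (-0.32 to -0.10), within the fold limit. SDC3 was not called (ratio 1.70, 0.364 to 10.5). Of the 8 core proteins tested, 1 was called higher and 4 lower, where 16.8% and 14.8% of all loci were. Their median log2 fold change was -0.59 (order-statistic interval -1.39 to 0.95), against 0.07 for all loci. The epithelial markers KRT8, KRT18, KRT19 and VIL1 were also called lower between these 2 libraries, by -1.23, -0.97, -1.17 and -2.61 on the log2 scale, and CDH1, KRT20 and LGALS4 were called higher, at 0.74, 1.11 and 1.5. Their part in the values of the core proteins was not tested. The 10 core proteins summed to 1575 CPM in the control and 1050 CPM with SCS, and their share of the fragments of all 44 genes was 65.9% and 53.9%.

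The first 250 bases before the transcription start are shown for 4 of these genes, HSPG2 and SDC1 as core proteins called lower, GPC1 as the one called higher, and SULF2, described below, as a promoter of lower GC content. They are from RefSeq (GRCh38.p14), read 5′ to 3′ on the strand of the gene, and overlap no annotated exon. Capitals mark GGGCGG or its reverse complement CCGCCC, the letters of the GC box that Sp1 is known to bind. HSPG2 lies at chr1:21937311-21937560 on the minus strand, SDC1 at chr2:20225476-20225725 on the minus strand, GPC1 at chr2:240435413-240435662 on the plus strand and SULF2 at chr20:47786628-47786877 on the minus strand.
HSPG2: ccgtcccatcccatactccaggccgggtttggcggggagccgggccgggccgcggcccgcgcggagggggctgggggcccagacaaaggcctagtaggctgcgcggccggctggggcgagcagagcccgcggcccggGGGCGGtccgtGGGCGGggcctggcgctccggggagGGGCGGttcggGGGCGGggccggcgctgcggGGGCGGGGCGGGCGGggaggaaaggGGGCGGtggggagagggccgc
SDC1: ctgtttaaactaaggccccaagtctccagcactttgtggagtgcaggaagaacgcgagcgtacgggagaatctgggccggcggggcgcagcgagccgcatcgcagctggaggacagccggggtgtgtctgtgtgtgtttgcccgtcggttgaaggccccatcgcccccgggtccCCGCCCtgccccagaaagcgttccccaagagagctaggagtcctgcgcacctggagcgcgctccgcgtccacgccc
GPC1: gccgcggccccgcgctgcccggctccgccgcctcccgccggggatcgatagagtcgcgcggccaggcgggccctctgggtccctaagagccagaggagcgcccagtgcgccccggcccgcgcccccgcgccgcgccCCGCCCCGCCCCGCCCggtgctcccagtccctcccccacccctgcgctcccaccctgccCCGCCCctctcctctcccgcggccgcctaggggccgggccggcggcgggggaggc
SULF2: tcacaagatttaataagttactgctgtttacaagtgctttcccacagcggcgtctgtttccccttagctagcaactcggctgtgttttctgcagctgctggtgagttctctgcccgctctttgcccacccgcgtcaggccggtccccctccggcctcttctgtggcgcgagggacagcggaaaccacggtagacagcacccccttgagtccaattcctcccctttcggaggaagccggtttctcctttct
These windows held 8 matches in HSPG2, 1 in SDC1, 4 in GPC1 and 0 in SULF2, counting overlapping matches, and their GC content was 82.8%, 66.4%, 84.0% and 56.8%. HSPG2 and GPC1 thus had the most matches of the 4 and were called in opposite directions. Promoters of 37 of the 44 genes were found in RefSeq's table, and 34 of the 37 (91.9%) held the motif on either strand. It was found in 42.3% of all 27305 promoters and in 66.9% of the 10279 promoters of genes tested in either line. The E-box letters CACGTG were found in 4 of 37 (10.8%), B3GALT6, CHSY1, EXTL2 and GALNS, against 6.49% of all promoters and 8.87% of those of genes tested. A match gives the letters of the window and no more.

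Of the 4 linker enzymes, which add the tetrasaccharide that all these chains share, 1 was called in HT-29 cells. Of all loci tested in these cells, 31.5% were called. B3GAT3, which adds the last sugar of the linker, glucuronic acid, had 19 fragments in the control and 43 under SCS, differing on the log2 scale by 0.86 (0.14 to 1.81). The other three were not called and ranged from -0.20 for B3GALT6 to 0.76 for B4GALT7, with XYLT2, a xylosyltransferase, at -0.00. The call of B3GAT3 rested on few fragments and was lost when the nuclear fragments were thinned to equal depth or when libraries were scaled by their nuclear total.

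Of the chondroitin and dermatan sulfate enzymes, 7 of 11 could be tested in HT-29 cells. Of these 2 were called higher and 2 lower, where 16.8% and 14.8% of all loci were. CHPF had 79 fragments in the control and 218 under SCS, or 38.6 and 90.7 CPM, differing by 1.21 on the log2 scale (0.85 to 1.62). CHPF was called under every alternative. CHSY1, the synthase with which CHPF forms a complex, had 50 and 30 fragments, differing by -0.90 on the log2 scale (-1.67 to -0.29). The partners of chondroitin polymerisation were thus called in opposite directions, and their FPKM went from 18.1 to 37.6 for CHPF and from 5.23 to 2.10 for CHSY1. CHPF2, a related factor, was at 0.54 (0.13 to 0.98), under the fold limit.

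Of the sulfotransferases of these chains CHST14 and UST were called. CHST14, the 4-sulfotransferase of dermatan sulfate, had 28 and 13 fragments, differing by -1.16 on the log2 scale (-2.41 to -0.34). UST, which sulfates uronic acid at the 2 position, had 2 fragments in the control and 15 under SCS, a ratio of 6.39 (1.49 to 57.5). Both rested on few fragments. CSGALNACT2 and CHST12 were not called (0.51 and -0.47). DSE, the epimerase that makes dermatan from chondroitin, had 1 and 3 fragments and was not tested. With CSGALNACT1, VCAN, BGN, CHST11 and CHST15, it makes up the 6 genes that could not be tested in HT-29 cells. The median of the 7 genes tested was 0.51 (order-statistic interval -1.16 to 1.74), and the lowest value was that of CHST14. At a mean of at least 5 CPM the median was 0.02.

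Of the 10 heparan sulfate enzymes 1 was called in HT-29 cells, where 31.5% of all loci tested were. SULF2, an extracellular sulfatase that removes 6-sulfate from heparan sulfate, had 38 fragments in the control and 12 under SCS, or 18.6 and 4.99 CPM. The difference on the log2 scale, -1.66 (-2.97 to -0.93), was the lowest of the 38 genes tested, and it was called under every alternative. The polymerase genes were close to 0, at 0.02 (-0.35 to 0.40) for EXT1 and -0.02 (-0.42 to 0.39) for EXT2. GLCE, the epimerase of heparan sulfate, was at 0.44 (-0.11 to 1.05) and HS6ST1, a 6-sulfotransferase, at -0.98 (-2.66 to 0.08), neither of them called. The other five, EXTL2, EXTL3, NDST1, NDST2 and HS2ST1, ranged from -0.39 to -0.09. The median of the 10 was -0.17 (order-statistic interval -0.98 to 0.02).

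In the breakdown of the chains, 1 of 9 genes was called in HT-29 cells, where 31.5% of all loci were. It was no lysosomal sulfatase. HYAL2, a hyaluronidase anchored at the cell surface, had 50 and 34 fragments, differing by -0.74 on the log2 scale (-1.46 to -0.13). It shares its fragments with the overlapping TUSC2, and the call was lost on scaling to total fragments. Of the remaining genes, 6 had values above 0: SGSH 0.81, HEXA 0.47, NAGLU 0.31, GALNS 0.30, GLB1 0.30 and GUSB 0.16. None of them was called. ARSB, arylsulfatase B of chondroitin and dermatan sulfate, was at -0.63 on 8 and 5 fragments, and IDS, iduronate sulfatase, at -0.10. The median of the 9 was 0.30 (order-statistic interval -0.63 to 0.47), and their summed level was 365 CPM in the control and 412 CPM with SCS.

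**Figure D2:**
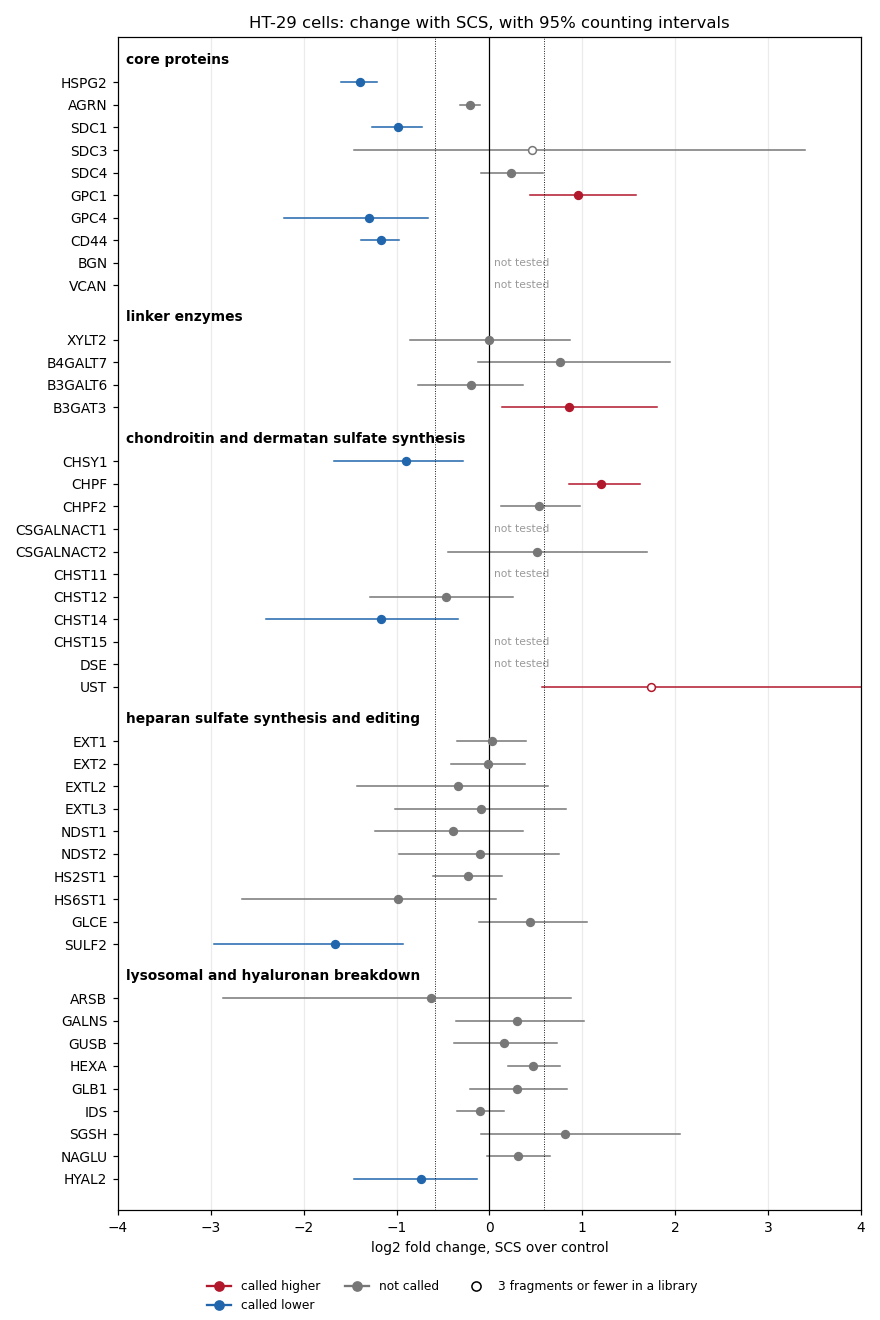
Log2 fold change of SCS over control in HT-29 cells for the 44 genes in 5 roles, with 95% counting intervals and 1 library per condition; dotted lines mark 1.5-fold, red and blue mark genes called higher and lower, and the interval of UST is cut at the axis. Core proteins hold 4 of the 8 genes called lower, and 9 of 10 heparan sulfate enzymes and 8 of 9 breakdown enzymes are grey. Of all loci tested, 31.5% were called in either direction and 14.8% lower.

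In NCM460 cells the called genes were others, and most of the calls moved with the GC trend. Called higher with SCS were VCAN, DSE, HS2ST1, GLCE and IDS, and called lower were AGRN, SDC3, CHST15, NDST2, HS6ST1 and GLB1. These were 11 of the 42 genes tested, or 26.2%, where 29.2% of 12657 loci were called in either direction, 15.4% higher and 13.8% lower. With the GC trend subtracted, 8 genes were called, where 10.8% of 12600 loci were. Of these 7 were higher, namely SDC1, GPC1, DSE, GLCE, GUSB, IDS and HYAL2, and 1, EXT1, was lower, against 5.16% and 5.67% of loci. On total fragments 12 genes were called higher and 0 lower, on nuclear fragments 5 and 2, and with DESeq2 size factors 5 and 10. Only DSE, GLCE and IDS were called higher with and without the GC trend, and no gene was called lower both ways. The median of the 42 genes was -0.37 (-0.51 to -0.07) and became 0.02 with the trend subtracted, where that of all loci was 0.03 and became -0.01.

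The transcripts of the 42 genes had a median GC content of 54.1%, and those of all loci 49.7%. Their log2 fold changes had a Spearman's rho of -0.55 with GC content in NCM460 cells and of 0.20 over the 38 genes in HT-29 cells. These genes share the 2 libraries of each line, and the correlations describe those libraries. The mitochondrial share of fragments also differed between the 2 libraries of each line, and its part in the values of either line was not tested.

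**Figure D3:**
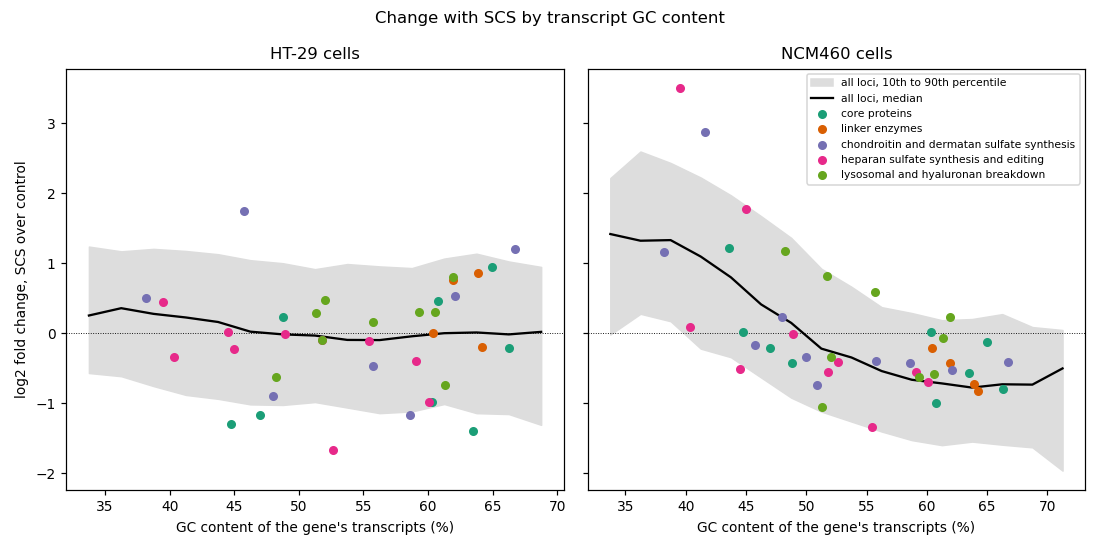
Log2 fold change of SCS over control against transcript GC content in percent for the genes tested, 1 point per gene and coloured by role; the line and the grey band are the median and the 10th to 90th percentiles of all loci tested, in bins of 2.5 percentage points with at least 20 loci. In NCM460 cells the points follow the falling line (rho = -0.55 over 42 genes). In HT-29 cells the line falls less, from 0.36 in the bin at 36.25% GC to -0.10 in that at 56.25%.

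The largest ratios in NCM460 cells belonged to 2 epimerases, which turn glucuronic into iduronic acid. GLCE had 1 fragment in the control and 30 with SCS, a ratio of 21.6 (3.59 to 881), and its log2 fold change with the trend subtracted was still called. DSE had 2 and 29 fragments, a ratio of 10.4 (2.64 to 90.3). Both were called under every alternative, but both were at or under the floor in the control and both share their locus with another gene. In HT-29 cells GLCE was not called, on 42 and 68 fragments, and DSE had too few fragments. IDS, which removes sulfate from iduronic acid, had 24 and 60 fragments in NCM460 cells, a log2 fold change of 0.82 (0.14 to 1.60) and 1.02 (0.34 to 1.80) with the trend subtracted. The row listed as IDS carries an identifier that GENCODE release 29 gives to an overlapping gene.

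The remaining genes called higher in NCM460 cells lost the call with the trend subtracted. VCAN had 9 and 31 fragments, differing by 1.22 on the log2 scale (0.21 to 2.57), which became 0.40 (-0.62 to 1.74). HS2ST1, the 2-sulfotransferase of heparan sulfate, had 5 and 27 fragments and 1.77 (0.56 to 3.69), which became 1.14 (-0.07 to 3.06). Its FPKM, 11.7 and 13.5, differed little between the same libraries, and it shares its locus with 2 other genes.

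The 6 genes called lower in NCM460 cells all lost the call with the trend subtracted. AGRN had 123 and 98 fragments, differing by -0.79 on the log2 scale (-1.20 to -0.41), which became -0.05 (-0.45 to 0.34). SDC3 had 103 and 71 fragments and -0.997 (-1.47 to -0.56), which became -0.31 (-0.78 to 0.13). Neither core protein was called in HT-29 cells. CHST15 had 38 and 31 fragments and -0.74 (-1.5 to -0.04), which became -0.63 (-1.38 to 0.07). HS6ST1 had 38 and 32 fragments and -0.70 (-1.45 to -0.00), which became -0.02 (-0.77 to 0.67). Both intervals ended just below 0 before the trend was subtracted. NDST2, an N-deacetylase and N-sulfotransferase of heparan sulfate, had 16 and 8 fragments and -1.33 (-2.91 to -0.17), which became -0.85 (-2.42 to 0.32). GLB1, lysosomal beta-galactosidase, had 25 and 16 fragments and -1.05 (-2.12 to -0.16), which became -0.90 (-1.96 to 0.00).

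**Figure D4:**
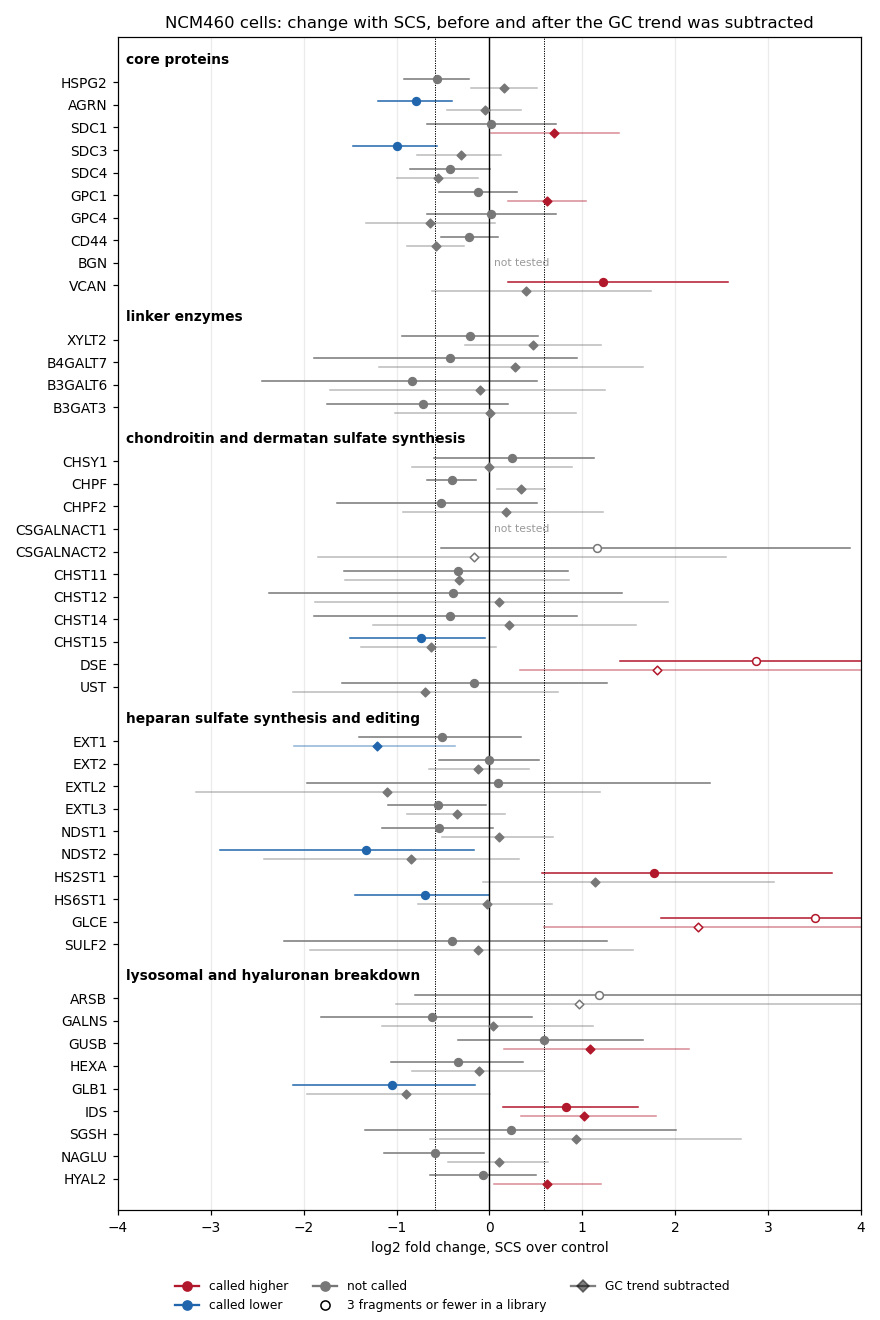
Log2 fold change of SCS over control in NCM460 cells for the 44 genes, with 95% counting intervals and 1 library per condition; circles are the values as measured and diamonds those with the GC trend subtracted, dotted lines mark 1.5-fold, and intervals beyond 4 are cut at the axis. The 6 blue circles each have a grey diamond, and DSE, GLCE and IDS are red both ways.

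In NCM460 cells 29.2% of all loci tested were called as measured, and 10.8% with the GC trend subtracted. By role, these cells had 1 core protein called higher and 2 lower of 9, and no linker enzyme of 4. They had 1 chondroitin or dermatan sulfate enzyme higher and 1 lower of 10, and 2 heparan sulfate enzymes higher and 2 lower of 10. Of the 9 breakdown enzymes 1 was called higher and 1 lower. The medians in the same order were -0.21, -0.57, -0.37, -0.46 and -0.07, and with the trend subtracted -0.05, 0.14, 0.05, -0.12 and 0.62. The breakdown enzymes were the role with the highest median after the trend was subtracted, with an order-statistic interval of -0.11 to 1.02 that held 0. In that setting GUSB, lysosomal beta-glucuronidase, was at 1.09 (0.16 to 2.15) and HYAL2 at 0.62 (0.05 to 1.20), both called higher. EXT1, on 25 and 24 fragments, was at -1.21 (-2.11 to -0.37) in that setting and at -0.51 (-1.40 to 0.34) as measured.

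The genes called in HT-29 cells can be set beside NCM460 cells, where none of the 12 was called as measured and 29.2% of all loci tested were. How many of all loci called in HT-29 cells were also called in NCM460 cells was not counted. HSPG2 had 140 and 131 fragments in NCM460 cells, at -0.56 (-0.92 to -0.22), just short of the 1.5-fold limit. This became 0.16 (-0.20 to 0.51) with the trend subtracted. CD44 had 169 and 202 fragments and was at -0.21 (-0.52 to 0.09), which became -0.58 (-0.88 to -0.28). SDC1 had 32 and 45 fragments and was at 0.02 (-0.67 to 0.72), which became 0.70 (0.01 to 1.40), called higher. SDC4 had 90 and 93 fragments and was at -0.42 (-0.86 to 0.01), which became -0.55 (-0.99 to -0.13). GPC1 had 87 and 111 fragments and was at -0.12 (-0.54 to 0.30), which became 0.62 (0.20 to 1.04), called higher as in HT-29 cells. GPC4, on 32 and 45 fragments, was at 0.02 and became -0.64 (-1.33 to 0.06).

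Of the enzymes called in HT-29 cells, CHPF had the most fragments in NCM460 cells as well. It had 236 and 247 fragments and was at -0.41 (-0.67 to -0.14), which became 0.34 (0.08 to 0.60). CHSY1 was at 0.24 on 20 and 33 fragments, CHST14 at -0.42 on 10 and 10, UST at -0.16 on 9 and 11, B3GAT3 at -0.72 on 22 and 18 and SULF2 at -0.41 on 7 and 7. With the trend subtracted they were at -0.00, 0.21, -0.69, 0.01 and -0.13. HYAL2, on 47 and 62 fragments, was at -0.07. SDC1 and HYAL2 were called lower in HT-29 cells and higher in NCM460 cells with the trend subtracted. The difference between the lines was not tested for any gene, since each line has 1 library per condition.

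The controls of the 2 lines differed in several of the genes that were called in HT-29 cells. SDC1 in NCM460 cells was at 0.271 (0.182 to 0.391) of its HT-29 CPM in the controls and 0.546 (0.385 to 0.761) with SCS. HSPG2 was at 0.528 (0.438 to 0.634) in the controls and 0.942 (0.762 to 1.16) with SCS. CHPF was at 7.85 (6.06 to 10.3) in the controls and 2.52 (2.09 to 3.03) with SCS. For these 3 genes the ratio between the lines lay nearer to 1 with SCS than in the controls, as it did for 7 of the 12 genes called in HT-29 cells. For the other 5, GPC4, CD44, CHSY1, CHST14 and HYAL2, it lay farther from 1. The 12 genes were chosen by the HT-29 values that also enter these ratios, so a shift of each ratio was built in. The same share over all loci was not counted, and no conclusion is drawn from the split. CD44 was at 0.749 (0.627 to 0.890) in the controls and 1.46 (1.21 to 1.75) with SCS.

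The chains are built from activated sugars and sulfate, and 18 genes of that supply were listed with 69 further genes of the pathway that are not among the 44. In HT-29 cells 11 of these 18 were called, 7 higher and 4 lower, where 31.5% of all loci were called, and with the GC trend subtracted 4 higher and 4 lower, where 30.3% were. The hexosamine pathway makes UDP-N-acetylglucosamine, and its first enzyme, GFPT1, had 446 fragments in the control and 1415 under SCS, differing on the log2 scale by 1.43 (1.28 to 1.59). PGM3, a mutase of the same pathway, had 32 and 128 fragments (1.69, 1.20 to 2.37). UAP1, which makes the nucleotide sugar, had 43 and 123 fragments (1.24, 0.77 to 1.82). GNPNAT1, the acetyltransferase that acts after GFPT1, was called lower, with 66 and 30 fragments (-1.29, -2.04 to -0.73). These 4 calls were made under every alternative.

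Both synthases of the sulfate donor PAPS were called lower in the same comparison. PAPSS1 and PAPSS2 had 58 and 34 fragments (-0.94, -1.66 to -0.37) and 39 and 22 fragments (-0.96, -1.88 to -0.27). BPNT2, the phosphatase that clears the product of sulfation in the Golgi, had 146 and 264 fragments and was called higher (0.61, 0.33 to 0.92), a call made under 5 of the 12 alternatives. Of the nucleotide sugar transporters of the Golgi and endoplasmic reticulum, SLC35A2 (0.91, 0.47 to 1.43) and SLC35A3 (0.71, 0.15 to 1.37) were called higher. The PAPS transporter SLC35B3 was also called higher (1.24, 0.13 to 3.40), on 5 and 18 fragments. SLC35B2, another PAPS transporter, had 92 and 72 fragments and lay in the other direction (-0.57, -1.05 to -0.12), not called. The calls of SLC35A3 and SLC35B3 were lost on scaling to nuclear fragments and with the GC trend subtracted. SLC35D1, which brings UDP-glucuronic acid into the endoplasmic reticulum, was called lower on 18 and 4 fragments (-1.78, -4.42 to -0.80).

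In NCM460 cells 7 of the 18 donor genes were called higher and 1 lower, where 29.2% of all loci were called, and none with the GC trend subtracted, where 10.8% of loci were. GFPT1 had 19 and 67 fragments and was at 1.30 (0.59 to 2.16), which became 0.0049 (-0.70 to 0.87). UAP1 was at 0.91 (0.001 to 1.998) on 13 and 35 fragments, which became -0.10. PGM3 had 3 and 28 fragments, a ratio of 6.72 (2.08 to 34.5), and its interval with the trend subtracted held 0. The transcripts of these genes are poor in GC, at 38.8% for GFPT1, 41.4% for PGM3 and 42.2% for UAP1.

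**Figure D5:**
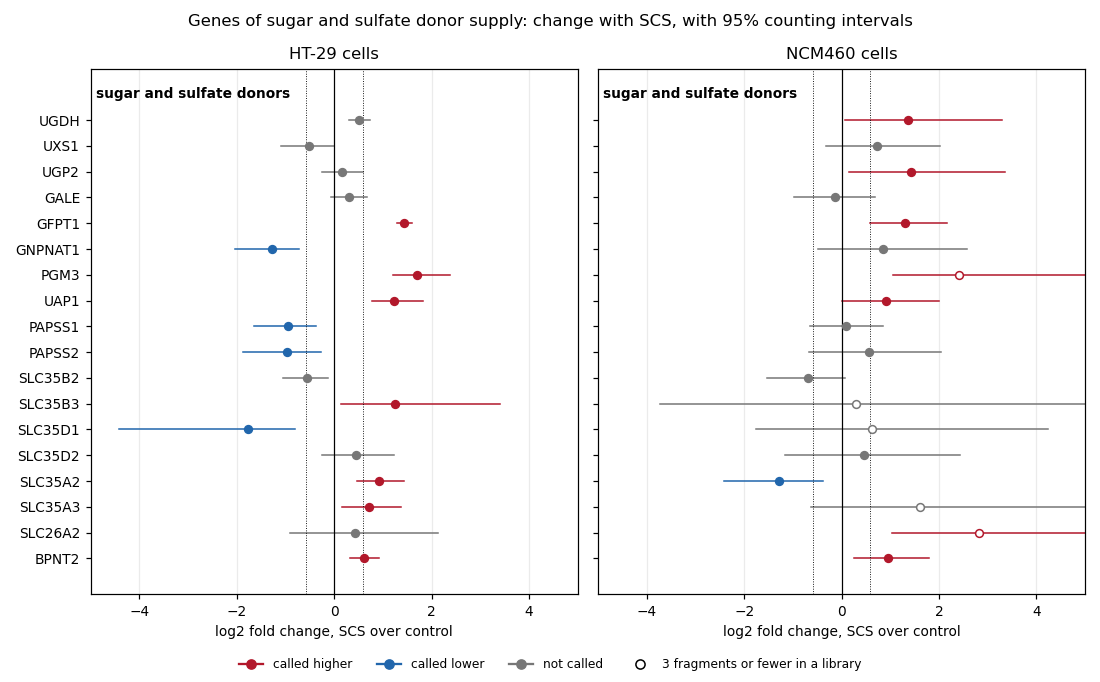
Log2 fold change of SCS over control for the 18 genes of sugar and sulfate donor supply in HT-29 cells (left) and NCM460 cells (right), as measured, with 95% counting intervals and 1 library per condition; dotted lines mark 1.5-fold and intervals beyond 5 are cut at the axis. GFPT1, PGM3 and UAP1 are red in both lines, and SLC35A2 is red in HT-29 cells and blue in NCM460 cells.

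The deposited FPKM gave the opposite direction to the fragments for 6 of the 38 genes tested in HT-29 cells and 4 of the 42 in NCM460 cells. None of these was called as measured. SDC1, which was called higher in NCM460 cells with the GC trend subtracted, was among the 4, at 12.5 FPKM in the control and 11.4 FPKM with SCS. In HT-29 cells the gap was widest for EXTL2, an enzyme of the EXT family, which had 19 and 17 fragments and 2.66 and 5.25 FPKM and was singled out after its values were seen.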

How the data were processed

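RNA was sequenced from HT-29 and NCM460 cells, control and SCS, with 1 library for each of the 4 conditions. According to the methods and labels, the authors extracted total RNA with TRIzol, prepared libraries with a NEBNext Ultra kit from RNA with a RIN above 7, filtered reads for adapters, poly-N stretches and quality, and compared expression with Cuffdiff. The submitters' processing notes name bcl2fastq 2.17.1.14, cutadapt 1.9.1, Bowtie2 and HTSeq 0.6.1 without roles, and the build hg19, whereas the coordinates of the table are those of GRCh38. Whether strand was used in counting is not given in the sources used here.

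The count values deposited by the authors are a signal, namely fragment counts over a per-library size factor, where the design had allowed for whole counts. The authors also deposited FPKM, which is scaled by transcript length and library size. Division by the value of a single fragment returned whole numbers, within 0.1, for at least 99.9% of the values above 0, and these recovered fragments were used. Of 64962 rows, 26 had no gene name (0.0403% to 0.0942% of the fragments) and were left out. Adjacent rows with identical values were merged into 18650 loci, of which 1812 hold more than 1 gene. The row names of the table gave the gene symbols.

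Libraries were scaled by edgeR 4.0.16 TMM factors (1.24, 1.50, 0.578 and 0.935). Calls need over 1.5-fold and a 95% counting interval that excludes 0. With 1 library per condition no test was made within a line and no p-value is given. A model of a change shared by both lines, with the line as a term, was not fitted. The GC trend is a lowess fit (span 0.3) on transcript GC content from GENCODE release 29, which was found for 98.9% of loci. Promoters are from RefSeq. The steps were tested on simulated data.

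All 44 genes are accounted for. Those called in a line, and HSPG2, CD44, SDC1 and SDC4, are given with their values, as are further pathway genes called in HT-29 cells, apart from 1 that is not reported here, and the highest and lowest of each role at a mean of at least 5 CPM. The 44 genes, the 87 further pathway genes and the marker lists were chosen with earlier results of these data known. The 12 alternatives planned were other scalings, a prior count of 0.5, filters, thinning, GC and length trends, FPKM and a 2-fold limit.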

Additional observations from a re-analysis of the deposited data

Results flagged for a closer look

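SLC35A2, the transporter that brings UDP-galactose into the Golgi, was called in opposite directions in the 2 lines. It had 55 fragments in the HT-29 control and 124 under SCS, differing on the log2 scale by 0.91 (0.47 to 1.43). In NCM460 cells it had 26 and 14 fragments, differing by -1.29 on the log2 scale (-2.42 to -0.38), which became -0.67 (-1.80 to 0.24) with the GC trend subtracted and was then not called. The difference between the lines was not tested. None of the 44 genes was called in opposite directions as measured.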

How the results depend on the processing

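Each line has 1 library per condition, and a model with the line as a block was not fitted. Of the 12 genes called in HT-29 cells, 5 were called under every alternative (HSPG2, GPC4, CD44, CHPF and SULF2), and of the 11 in NCM460 cells 2 were (DSE and GLCE). The scaling moved the median of all loci: by 0.25 in HT-29 and 0.56 in NCM460 cells with total fragments only, by -0.14 and 0.16 with nuclear totals, by -0.19 and -0.37 with FPKM, and in NCM460 cells by -0.10 with length trends or DESeq2 size factors. Genes called higher among the 44 in HT-29 cells numbered 9 with total fragments, 7 with FPKM, which has no interval, and 2 at a 2-fold limit, in place of 4, and lower calls 5 at a 2-fold limit, in place of 8. The medians of the heparan sulfate and breakdown enzymes in HT-29 cells became 0.094 and 0.56 with total fragments. In NCM460 cells the 5 higher calls became 12 with total fragments and 1 for genes alone in their locus, a setting added after seeing the data. The 6 lower calls became 10 with DESeq2 size factors or the length trend subtracted, 0 with total fragments, 2 with nuclear totals or a 2-fold limit, 1 with the GC trend subtracted, 20 with FPKM and 3 for genes alone in their locus. The median of the genes tested in NCM460 cells turned to 0.29 with total fragments and 0.024 with the GC trend subtracted and was -0.55 with FPKM, that of the core proteins turned to 0.47 with total fragments, that of the linker enzymes to 0.0625 and 0.14 in the first 2 settings, and that of the heparan sulfate enzymes was -0.83 with FPKM. For the further pathway genes in HT-29 cells, the 10 higher calls became 6 with nuclear totals or the GC trend subtracted and 5 at a 2-fold limit, and the 9 lower calls 5 after thinning and 17 with FPKM. In NCM460 cells their 13 higher calls became 8 with DESeq2 size factors, 23 with total fragments, 1 with the GC trend subtracted, 7 with the length trend subtracted and 20 with FPKM, and their 4 lower calls 1 with total fragments or the GC trend subtracted and 18 with FPKM. Cause was not tested for any of these. Over all settings, 841 values of single genes stayed within their counting interval, 35 moved by more, and none of a called gene changed sign. Depth limits both lines, since the 44 genes had a median of 36 and 29 fragments in the HT-29 libraries, against 21 and 30 for NCM460.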

Other observations

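Further pathway genes outside the 44 that carry or modify these chains were also read. Of 87 such genes, 46 were tested in HT-29 cells, with 10 called higher and 9 lower (41.3%, where 31.5% of all loci were called), and 54 in NCM460 cells, with 13 higher and 4 lower (31.5%, where 29.2% of all loci were). With the GC trend subtracted 16 and 2 of them were called, or 34.8% and 3.70%, where 30.3% and 10.8% of loci were. HS3ST1, a 3-sulfotransferase of heparan sulfate, had 85 fragments in the HT-29 control and 12 under SCS, differing on the log2 scale by -2.77 (-4.06 to -2.18) that was called under every alternative. In NCM460 cells it had 18 and 21 fragments and was at -0.24 (-1.23 to 0.74). HPSE, heparanase, had 13 and 2 fragments in HT-29 cells, a ratio of 0.131 (0.014 to 0.579). CEMIP, a hyaluronan-degrading factor, had 19 and 3 fragments there, a ratio of 0.134 (0.0255 to 0.457). HYAL3, which lies beside HYAL2 and shares its fragments with 2 other genes, was called lower (-0.70, -1.29 to -0.20). NRP1, a coreceptor that can carry a chain, had 109 and 226 fragments and was called higher (0.81, 0.48 to 1.16). DSEL, a relative of DSE, had 1 and 12 fragments, a ratio of 10.2 (1.51 to 437), and GPC3, a glypican, had 8 fragments in the control and 0 under SCS.

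In NCM460 cells 2 of these genes were called with the GC trend subtracted. CSPG4, a large membrane chondroitin sulfate proteoglycan, had 54 and 22 fragments, differing by -1.71 on the log2 scale (-2.56 to -1.03) that became -0.98 (-1.83 to -0.31). HS6ST2, a 6-sulfotransferase, had 5 and 20 fragments (1.36, 0.07 to 3.30), which became 1.58 (0.28 to 3.51). PTPRS, a phosphatase that binds both kinds of chain, had 261 and 173 fragments (-1.06, -1.35 to -0.78), which became -0.37 and was not called. SLC26A2, a sulfate transporter, had 1 and 18 fragments, a ratio of 13.0 (2.05 to 540). PXYLP1, a phosphatase of the linker, had 3 and 16 fragments, a ratio of 3.84 (1.10 to 20.6), and HMMR, a hyaluronan-binding protein of the spindle, 3 and 15, a ratio of 3.60 (1.02 to 19.4). None of these 3 was called with the trend subtracted. At a mean of at least 5 CPM, the other extremes of their roles were not called: APLP2 (0.23), FAM20B (-0.42), PTPRF (-0.21) and HMMR (-0.32) in HT-29 cells, and TGFBR3 (0.57), XYLT1 (-0.30), CHST3 (-0.45), CHST7 (-0.61), CEMIP2 (0.89) and CEMIP (-0.63) in NCM460 cells.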
